A study of Mus musculus with 4 samples.

Results

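The extracellular matrix genes examined here are 47 collagens, laminins, proteoglycans, matrix glycoproteins and matrix enzymes that were listed by name. A gene was taken into the set where a row of the array carried its symbol and no other, and for each gene the row with the highest mean signal over the 4 pools was used. With Fbn1 not analysed here, 46 genes remained, of 18193 gene symbols on the array. The set was divided into 19 basement membrane genes and 27 interstitial matrix genes. RNA was taken from whole kidneys of embryonic day 15 (E15) embryos, when nephrons form while the ureteric tree branches. The dams were C57BL/6 females, 8 weeks old when they were assigned to diets and later mated with C57BL/6 males. The control group had an iron-sufficient diet with 220 ppm iron. The iron-deficient group had a synthetic diet with about 2 to 6 ppm iron. Both diets started 3 weeks before gestation and were kept up through breeding and pregnancy. Each group held at least 20 dams and was represented by 2 pools of 16 kidneys, each measured on 1 Affymetrix Mouse Genome array. The labels do not say whether pools on one diet held kidneys of different litters, so the p-values reflect no more than pool-to-pool spread, which may be technical.

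The extracellular matrix of the kidney has a pair of main forms. Basement membranes are thin sheets under epithelia and around vessels, built from a laminin network and a type IV collagen network that nidogens and heparan sulfate proteoglycans join. The interstitial matrix is made mostly by stromal cells and holds fibrillar collagens, collagen VI filaments, elastic fibre proteins, fibronectin and small proteoglycans. During kidney development basement membranes line the ureteric bud and the forming nephrons, and in the glomerulus the early laminin and type IV collagen chains are later replaced by other chains of the same families. Collagen chains are hydroxylated on proline and lysine by enzymes that need iron and oxygen.

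In the deposited signals, interstitial matrix genes stood higher in the iron-deficient pools and basement membrane genes did not stand apart as a group. The pools of the 2 diets did not overlap, with iron deficiency the higher, for 16 of 27 interstitial genes (59.3%) and for 3 of 19 basement membrane genes (15.8%), against 11.8% of the 27022 probe sets tested. They did not overlap, with iron deficiency the lower, for 2 interstitial genes (7.41%) and 2 basement membrane genes (10.5%), against 25% of all probe sets tested. Genes whose pools do not overlap between diets are called separated, upwards where iron deficiency was higher and downwards where it was lower. Each matrix gene is read by its brightest row, whereas the shares over all probe sets also cover dimmer rows. Other lists read in that way also exceeded 11.8% upwards. They were renal stroma markers (36.4%), TGF-beta pathway genes (35.7%), matrix receptors (31.8%) and collagen folding genes (30%), among others. Smooth muscle and proximal tubule markers had 0%. The median log2 difference, iron-deficient minus control, was 0.32 for the interstitial genes, 0.07 for the basement membrane genes and -0.10 for all probe sets tested. Relative to that overall median, the values were 0.42 and 0.18. The difference was above 0 for 22 interstitial genes and 14 basement membrane genes, against 41.6% of all probe sets. The groups stood less far apart from the rest in the genes' other tested probe sets. Of 33 such interstitial probe sets, 10 were separated upwards and 6 downwards, with a median of 0.16. Of 13 such basement membrane probe sets, 0 were separated upwards and 1 downwards, 5 were above 0, and the median was -0.06.

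No single matrix gene differed between diets at an adjusted limma p under 0.05. By limma with Benjamini-Hochberg adjustment over 27022 probe sets, the adjusted p of the 46 genes ran from 0.852 to 0.998, and 0% of all probe sets passed at 0.05. At an unadjusted p under 0.05 there was no matrix gene higher and no matrix gene lower, where 1.14% of all probe sets were higher and 2.81% lower. The smallest unadjusted p in the set was 0.0771, for Col15a1. The standard error of a log2 difference was 0.31 to 0.53 over these genes, and a missed threshold does not show equal levels.

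The arrays differed in ways that touch these values. The array of iron-deficient pool 1 had correlations of 0.883 to 0.913 with the others across log2 signals, where the control pools reached 0.978. Control RNAs that are added at hybridisation, read by 18 probe sets, separated the diets upwards in all 18 cases, with a median log2 difference of 0.59. Their geometric mean signal was 1368 and 1772 on the control arrays, against 2840 and 1945 on the iron-deficient arrays. The part of these array differences in the results was not tested. The ratio of the 3′ to the 5′ actin control probe set was 1.38 and 1.40 in control pools, against 1.64 and 1.49 in iron-deficient pools. The Gapdh ratio was 1.28 and 1.36 in control pools, against 1.43 and 1.26 in iron-deficient pools, so it overlapped. A probe set for 18S ribosomal RNA read 2144.5 in iron-deficient pool 1 and 243 to 291.9 in the other pools. Eif2s3y, a Y-linked gene, read 594.5 and 600 in control pools, against 253.6 and 20.8 in iron-deficient pools, although the labels give every sample as female. The part of embryo sex in the results was not tested, also for Col4a5, Col4a6, Bgn and Timp1, which lie on the X chromosome. Wt1, a kidney transcription factor and a podocyte marker of the lists below, read 1302 and 1324 in control pools, against 1649 and 1631 in iron-deficient pools. It is a kidney transcript and not an array control. All 46 matrix genes were above the highest of 27 unspiked control probe sets on every array.

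The direction of the group values depended on the scaling between arrays. The interstitial median was 0.32 as deposited, 0.41 after quantile normalization, 0.51 after median centring of each array and -0.28 after each array was centred on its hybridisation controls, which lowers every log2 difference by 0.594. For the basement membrane genes these medians were 0.07, 0.12, 0.27 and -0.52, and for all probe sets tested -0.10, -0.05, 0.09 and -0.70. As deposited and after quantile normalization the interstitial median lay above the basement membrane median, and that above the median of all probe sets. Both ways of centring move every log2 difference by one amount, so they could not change this order. After centring on hybridisation controls, 3 interstitial genes (Col1a1, Col12a1 and Fbn2) and 0 basement membrane genes kept a difference above 0. At an unadjusted limma p under 0.05, Col15a1 and Timp1 were then lower, against 8.19% of all probe sets. After quantile normalization 15 interstitial and 3 basement membrane genes were separated upwards, against 14% of all probe sets, and 2 and 3 downwards, against 21%.

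**Figure D1:**
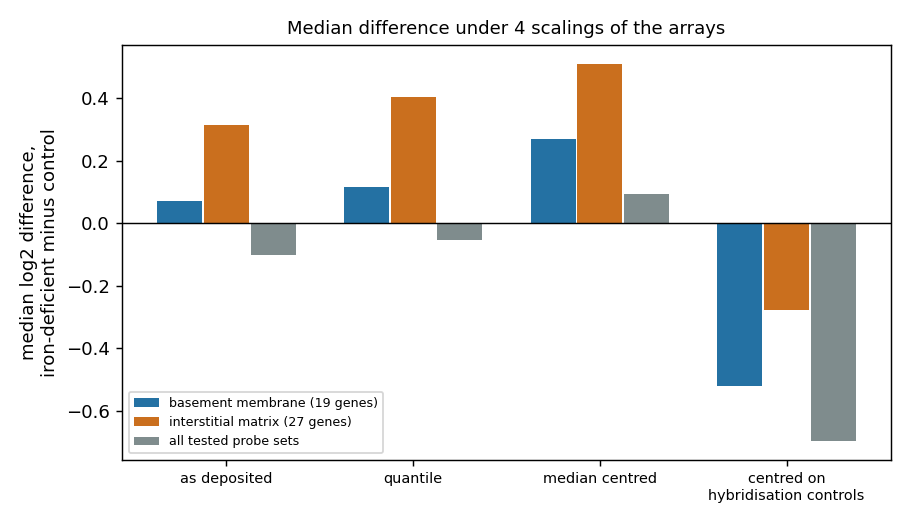
Median log2 difference, iron-deficient minus control (vertical axis), of 19 basement membrane genes, 27 interstitial matrix genes and all tested probe sets under 4 scalings of the arrays (horizontal axis). The interstitial bar is the highest of the 3 in each scaling, an order that the centred scalings could not change. All bars lie below 0 when arrays are centred on hybridisation controls.

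Promoter sequences are shown for a type IV collagen pair that shares its start region, and for 4 of the interstitial genes that were higher in both iron-deficient pools. Sequences are from RefSeq on GRCm38.p6, and the table held a window for 30 of the 46 genes. The type IV collagen genes lie in pairs that are read away from each other. The start sites of Col4a2 on the plus strand and Col4a1 on the minus strand were 21 bases apart, so that the 2 transcripts overlap by 22 bases at their 5′ ends, shown here with a GC box in capitals.
Col4a2 and Col4a1 (chr8:11312805-11312826, plus strand): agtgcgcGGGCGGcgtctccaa
Col4a5 and Col4a6, the pair on the X chromosome, start 1343 bases apart.

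The next windows are the 250 bases before the start sites of 3 fibrillar collagen genes and of Sparc, 5′ to 3′ in the direction of transcription. Capitals mark matches, on either strand, to any of 5 strings, none of which contains another. The string ACGTG is the core of the hypoxia response element. The CCAAT box and the GC box (GGGCGG) are common promoter elements. The TATA box was searched as TATAAA, and the string CAGACA is bound by SMAD factors of the TGF-beta pathway. The 4 genes shown are those that held CAGACA among 9 interstitial genes with a window and higher in both iron-deficient pools. Windows of the others are not shown.
Col1a2 (chr6:4505368-4505617, plus strand): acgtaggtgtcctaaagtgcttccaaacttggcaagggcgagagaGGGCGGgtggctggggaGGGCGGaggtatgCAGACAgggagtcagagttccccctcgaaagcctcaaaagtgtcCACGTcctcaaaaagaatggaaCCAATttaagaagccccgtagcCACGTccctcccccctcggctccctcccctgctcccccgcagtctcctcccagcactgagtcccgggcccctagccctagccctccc
Col3a1 (chr1:45311288-45311537, plus strand): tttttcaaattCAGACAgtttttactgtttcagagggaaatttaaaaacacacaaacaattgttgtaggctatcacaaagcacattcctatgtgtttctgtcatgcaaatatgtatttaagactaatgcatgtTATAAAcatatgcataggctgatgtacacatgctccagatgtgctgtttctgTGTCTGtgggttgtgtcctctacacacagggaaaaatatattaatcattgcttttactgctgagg
Col5a1 (chr2:27886175-27886424, plus strand): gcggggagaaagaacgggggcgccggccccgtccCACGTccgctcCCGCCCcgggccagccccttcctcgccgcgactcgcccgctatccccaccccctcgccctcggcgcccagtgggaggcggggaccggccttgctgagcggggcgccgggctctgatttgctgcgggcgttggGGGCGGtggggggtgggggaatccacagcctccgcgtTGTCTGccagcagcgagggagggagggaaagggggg
Sparc (chr11:55420081-55420330, minus strand): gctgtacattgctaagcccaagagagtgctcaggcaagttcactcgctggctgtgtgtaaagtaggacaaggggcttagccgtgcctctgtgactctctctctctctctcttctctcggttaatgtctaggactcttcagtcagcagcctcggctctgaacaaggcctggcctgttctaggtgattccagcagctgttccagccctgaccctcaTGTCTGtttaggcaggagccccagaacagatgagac
Over all 32851 windows of the table, 16.6% held ACGTG, 33.8% CCAAT, 32.7% GGGCGG, 12.4% TATAAA and 17.1% CAGACA. Of 9 interstitial genes with a window that were higher in both iron-deficient pools, 2 held ACGTG (Col1a2 and Col5a1), 3 CCAAT, 4 GGGCGG, 2 TATAAA and 4 CAGACA (Col1a2, Col3a1, Col5a1 and Sparc). Of 14 basement membrane genes with a window, 1 held ACGTG (Col4a4), 6 CCAAT, 9 GGGCGG, 0 TATAAA and 2 CAGACA. Genes with several windows were counted if any window matched, while the shares over all windows are per window. The gene counts and those shares are therefore unlike measures. A match describes the letters only.

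Among basement membrane genes, the type IV collagens gave no common direction. Col4a1 and Col4a2 encode the chains of the network found in nearly all basement membranes. The Col4a1 signal was 3158.9 and 3859.3 in control pools, against 3534.3 and 3788.3 in iron-deficient pools, a log2 difference of 0.07 ± 0.32 (SE, n = 2 pools per diet). Col4a2 read 2450.1 and 2768.4 in control pools, against 2530.4 and 3119.0 in iron-deficient pools (0.11 ± 0.33). Both genes overlapped between diets as deposited, and both took the sign below 0 after quantile normalization (-0.26 and -0.12), where Col4a1 was separated downwards. A second Col4a1 probe set gave -0.06. Col4a3 and Col4a4 encode chains of the mature glomerular basement membrane. Col4a3 was dim, at 54.5 and 37.9 in control pools, against 46.9 and 19.4 in iron-deficient pools (-0.59 ± 0.52), and only iron-deficient pool 2 lay outside the control values. Col4a4 read 126.5 and 112.5 in control pools, against 56.8 and 107.2 in iron-deficient pools (-0.61 ± 0.42). Its iron-deficient pools were both below the control pools, pool 2 by a small margin, and the difference was -0.15 without pool 1. Col4a5, which encodes the partner chain of those 2, read 679 and 465.3 in control pools, against 854 and 515.1 in iron-deficient pools (0.24 ± 0.41). Col4a6, the chain found in the Bowman's capsule and some tubules, read 77.3 and 56.2 in control pools, against 59.2 and 76.3 in iron-deficient pools (0.03 ± 0.36), and its second probe set gave -0.05. In both of these X-linked genes the diets overlapped.

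Collagens XV and XVIII are basement membrane proteoglycans that carry an endostatin-type end domain. The signal of Col15a1 was 468.6 and 460.4 in control pools, against 217.1 and 334.9 in iron-deficient pools, a log2 difference of -0.78 ± 0.36 (SE), or 1.72-fold lower. The iron-deficient pools were both below the control pools, and the difference kept its sign under each scaling and without either iron-deficient pool (-0.47 without pool 1 and -1.10 without pool 2). This was the largest difference among the basement membrane genes, with a limma adjusted p of 0.852. Col18a1 read 1139.4 and 1358.5 in control, 771.5 in iron-deficient pool 1 and 1375.2 in pool 2 (-0.27 ± 0.41). Its pool 1 was below and its pool 2 above both control pools.

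Laminin chains split between the 2 iron-deficient pools. Laminins are three-chain proteins that start the assembly of a basement membrane. For 6 of 7 chains iron-deficient pool 1 lay below both control pools while pool 2 lay above both, a pattern held by 9 of 19 basement membrane genes, 3 of 27 interstitial genes and 16.3% of all probe sets. The split was not particular to laminins. In lists described below, it was held by 45% of collagen folding genes, 40% of matrix-degrading proteases and 40% of further crosslinking genes. It was also held by 37% of further interstitial genes and 36.4% of renal stroma markers. Shares were lower for matrix receptors (18.2%), further basement membrane genes (17.6%) and TGF-beta pathway genes (14.3%). The median log2 difference of pool 1 minus pool 2 was -0.99 for the laminin chains, against -0.15 for all probe sets and 0.05 between the control pools for the same chains. After quantile normalization the split held for 3 laminin chains and 7 basement membrane genes, against 18.3% of all probe sets. Of 5 further tested probe sets of laminin genes, 3 showed the split as deposited.

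Lama5, the alpha chain of mature kidney basement membranes, read 375.5 and 411.4 in control, 328.1 in iron-deficient pool 1 and 880.7 in pool 2. Lama1, the alpha chain of early epithelial basement membranes, read 622.5 and 541.4 in control pools, against 348.5 and 734.5 in iron-deficient pools. Each of these 2 alpha chains was highest in iron-deficient pool 2 and lowest in pool 1. Lama4, a chain of vessel walls, read 1115.2 and 962.8 in control pools, against 773.3 and 1535.5 in iron-deficient pools. Lama2, best known from muscle, read 247.3 and 239.3 in control pools, against 209.5 and 297.5 in iron-deficient pools. The order of the pools was the same for both, with a smaller spread for Lama2. Lamb1, the beta chain of early basement membranes, read 2169.3 and 2369.9 in control pools, against 2124 and 3580.3 in iron-deficient pools. Lamb2, which takes its place in the mature glomerulus, read 407 and 334.1 in control pools, against 298.2 and 663.4 in iron-deficient pools. In both beta chains iron-deficient pool 1 was the lowest pool and pool 2 the highest. Lamc1, the gamma chain of most kidney laminins, read 1202.8 and 1231.4 in control pools, against 1601.8 and 1237.4 in iron-deficient pools. This row did not show the split, but the second Lamc1 probe set did, at 877.7 and 930.8 in control pools, against 801.2 and 1052.7 in iron-deficient pools. Probe sets of 2 chains differed in sign: a second one of Lama4 gave -0.06, and of 2 further ones of Lamb1, 1 gave -0.20. That Lama4 probe set showed the reverse of the split, at 106.7 and 62.1 in control pools, against 107.4 and 56.5 in iron-deficient pools. Log2 differences over both pools were 0.45 ± 0.53 for Lama5, -0.20 ± 0.45 for Lama1, 0.07 ± 0.43 for Lama4 and 0.04 ± 0.34 for Lama2 (SE). They were 0.28 ± 0.38 for Lamb1, 0.27 ± 0.47 for Lamb2 and 0.21 ± 0.33 for Lamc1. With iron-deficient pool 1 left out, Lama5, Lamb2 and Lamb1 differed by 1.16, 0.85 and 0.66. Those values rest on 1 iron-deficient array and hold no spread among iron-deficient pools. With iron-deficient pool 2 left out instead, the same 3 genes had differences of -0.26, -0.31 and -0.09.

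Nidogens and heparan sulfate proteoglycans connect the laminin and collagen networks. Nid1 read 1665.7 and 1854.5 in control pools, against 2195 and 2310.3 in iron-deficient pools (0.36 ± 0.31, SE). Agrn, which encodes agrin, read 2036.6 and 1999.7 in control pools, against 2721.7 and 2415.2 in iron-deficient pools (0.35 ± 0.31). These 2 genes and Lamc1 were the basement membrane genes with both iron-deficient pools above both control pools, and Nid1 and Agrn remained so after quantile normalization (0.21 and 0.15). Lamc1 was separated by a small margin, 1237.4 in iron-deficient pool 2 against 1231.4 in control pool 2, and overlapped after quantile normalization. Nid2 read 666.3 and 547.2 in control pools, against 534.5 and 827 in iron-deficient pools (0.14 ± 0.37). Hspg2, which encodes perlecan, read 686.9 and 606.7 in control pools, against 470.4 and 892.3 in iron-deficient pools (0.01 ± 0.42). Nid2 and Hspg2 showed the same split between pools as the laminins. A second Hspg2 probe set was split too and gave -0.39, and of 2 further Nid1 probe sets 1 gave -0.06 and the other 0.68.

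**Figure D2:**
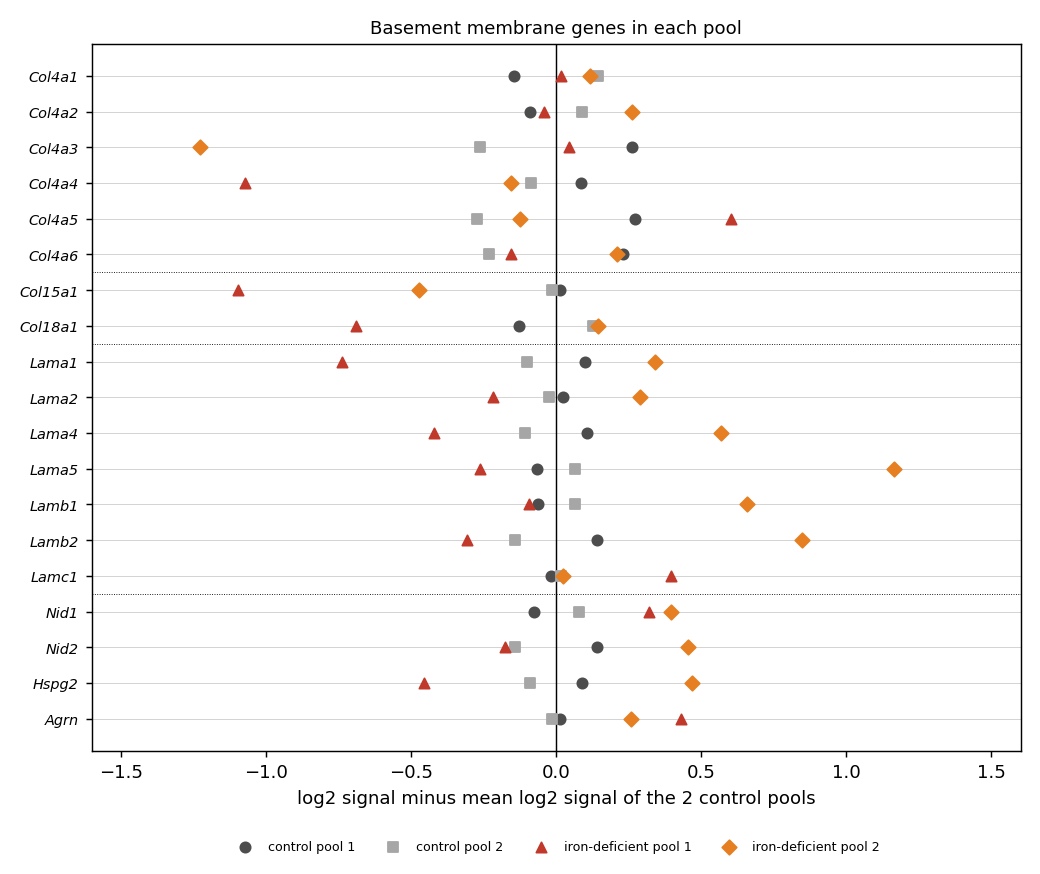
Log2 signal of each basement membrane gene in each pool, minus the mean of the 2 control pools (horizontal axis), with one row per gene and dotted lines between classes. For 6 of 7 laminin chains iron-deficient pool 1 (triangle) lies left of both control pools and pool 2 (diamond) lies right of both, while Col15a1 lies left in both iron-deficient pools.

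In the interstitial matrix, the fibrillar collagens form the load-bearing fibrils. Of 7 fibrillar genes, 6 were separated upwards, with both iron-deficient pools the higher, and the median log2 difference was 0.43, with all 7 above 0. After quantile normalization 5 of 7 were still separated upwards and the median was 0.42. Their 8 further tested probe sets all had differences above 0, and 5 of them had separated pools. Without iron-deficient pool 1 the median was 0.36, and without pool 2 it was 0.29.

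Col1a1 and Col1a2 encode the chains of type I collagen. The Col1a1 signal was 2478 and 2895.3 in control pools, against 6104.7 and 3439.6 in iron-deficient pools, a log2 difference of 0.77 ± 0.40 (SE) and a fold of 1.71. Its second probe set read 1695.4 and 2019.9 in control pools, against 3119 and 2571.9 in iron-deficient pools (0.61 ± 0.33). Both probe sets were separated, with iron-deficient pool 1 the higher of the pair, and the first gave 0.36 without that pool. Col1a2 read 2573.7 and 2759 in control pools, against 3717.3 and 3475 in iron-deficient pools (0.43 ± 0.31). Col5a2, a chain of the type V collagen that starts fibrils, read 792.2 and 656.7 in control pools, against 1286.2 and 868.9 in iron-deficient pools (0.55 ± 0.36). In these rows of Col1a1, Col1a2 and Col5a2 iron-deficient pool 1 was the highest pool. The second Col5a2 probe set had that pool lowest, at 707.7 and 687.7 in control pools, against 619.6 and 1088.6 in iron-deficient pools (0.24). Col2a1, best known as the collagen of cartilage, read 180.2 and 179.4 in control pools, against 219.4 and 309.5 in iron-deficient pools (0.54 ± 0.34). The other type V chain Col5a1 differed by 0.42 ± 0.33, type III collagen Col3a1 by 0.27 ± 0.31 and Col11a1 by 0.05 ± 0.37. Col3a1 was separated as deposited and turned to -0.06 after quantile normalization, while Col11a1 overlapped between diets.

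Collagen VI forms beaded filaments around cells. Col6a1 read 896.1 and 792.5 in control pools, against 940.5 and 1395.2 in iron-deficient pools (0.44 ± 0.36, SE). Col6a2 read 787.9 and 761.2 in control pools, against 873.8 and 1476.6 in iron-deficient pools (0.55 ± 0.38). Both were separated, with iron-deficient pool 2 well above pool 1, and differed by 0.16 and 0.17 without pool 2. Col6a3 read 660.5 and 438.7 in control pools, against 529.3 and 819.3 in iron-deficient pools (0.29 ± 0.40), so its pool 1 lay between the control pools.

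Collagens IX, XII and XIV sit on the surface of fibrils. Col12a1 read 237.3 and 173.6 in control pools, against 483.9 and 268.1 in iron-deficient pools. Its log2 difference of 0.83 ± 0.42 (SE), a fold of 1.77, was the largest of the 46 genes, with a limma adjusted p of 0.852. Without iron-deficient pool 1 it was 0.40, and without pool 2 it was 1.25. Col9a1 read 225.9 and 177.9 in control pools, against 307.9 and 271.4 in iron-deficient pools (0.53 ± 0.33), also separated. Col14a1 went the other way, at 440.2 and 341.4 in control pools, against 161.7 and 387 in iron-deficient pools (-0.63 ± 0.50). Only its pool 1 was below the control pools, the value without that pool was -0.002, and a second probe set differed by 0.16.

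Among interstitial glycoproteins and elastic fibre genes, 4 of 6 were separated upwards. Fbn2, the fibrillin of embryonic microfibrils, read 1053 and 968.6 in control pools, against 2177.9 and 1232.5 in iron-deficient pools (0.70 ± 0.40, SE). Its second probe set read 1094.9 and 1042.8 in control pools, against 1582.5 and 1631.1 in iron-deficient pools (0.59 ± 0.31). Both probe sets of Fbn2 were separated, and the second had nearly equal iron-deficient pools. Sparc, which encodes the collagen-binding protein osteonectin, read 3806 and 4465.5 in control pools, against 6106.6 and 5081 in iron-deficient pools (0.43 ± 0.33), and turned to -0.04 after quantile normalization. Postn, which encodes periostin, read 874.6 and 817.4 in control pools, against 896.6 and 1340.9 in iron-deficient pools (0.38 ± 0.36). Tnc, which encodes tenascin C, read 359.1 and 274 in control pools, against 353.5 and 386.9 in iron-deficient pools (0.24 ± 0.33). Postn was separated mainly through pool 2, and Tnc overlapped. Fibronectin (Fn1) differed by 0.19 ± 0.32. It was separated by a small margin, 1861.3 in iron-deficient pool 1 against 1857.9 in control pool 1, and overlapped after quantile normalization. Elastin (Eln) differed by -0.17 ± 0.37, but by 0.01 with quantile normalization and 0.03 with median centring.

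Proteoglycans of the interstitium differed less. Vcan, which encodes the large proteoglycan versican, read 1760 and 1707.5 in control pools, against 2298.2 and 2024.5 in iron-deficient pools (0.32 ± 0.31, SE), and was the separated one of the 4. Of its 5 tested probe sets, 4 had differences above 0 and 1 had -0.39. Lum, which encodes lumican, read 390.6 and 305.8 in control pools, against 464.2 and 373.9 in iron-deficient pools (0.27 ± 0.34). Dcn, which encodes decorin, read 1500.3 and 1702.9 in control pools, against 1765.6 and 1575 in iron-deficient pools (0.06 ± 0.32). Bgn, which encodes biglycan, read 1189.7 and 1280.9 in control pools, against 1103.9 and 1304.1 in iron-deficient pools (-0.04 ± 0.32). The small proteoglycans Lum, Dcn and Bgn all overlapped between diets. Of 2 further Bgn probe sets, 1 gave 0.05 and 1 was separated downwards (-0.10), and a second Dcn probe set gave -0.003.

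The crosslinking enzyme and the protease inhibitors went apart. Lox, which encodes lysyl oxidase, the enzyme that crosslinks collagen and elastin, read 1063.4 and 1052.2 in control pools, against 1682.3 and 1302.7 in iron-deficient pools (0.48 ± 0.33, SE). Its pools were separated upwards, while its second probe set read 597.7 and 547.6 in control pools, against 1242.2 and 522.9 in iron-deficient pools and overlapped. Timp1, an inhibitor of matrix metalloproteinases, read 335 and 346.7 in control pools, against 152.3 and 275.9 in iron-deficient pools (-0.73 ± 0.40, 1.66-fold lower). Timp3, the inhibitor that binds to matrix, read 899 and 753.7 in control pools, against 562.3 and 735 in iron-deficient pools (-0.36 ± 0.34). Both inhibitors were separated downwards, Timp3 by a small margin, and without iron-deficient pool 1 they differed by -0.30 and -0.16. One of the 4 Timp3 probe sets had the other sign (0.12). Timp2 read 1063.4 and 1346 in control pools, against 1309.4 and 1197 in iron-deficient pools (0.07 ± 0.33), but 5 of its 6 probe sets had differences below 0, down to -0.61.

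**Figure D3:**
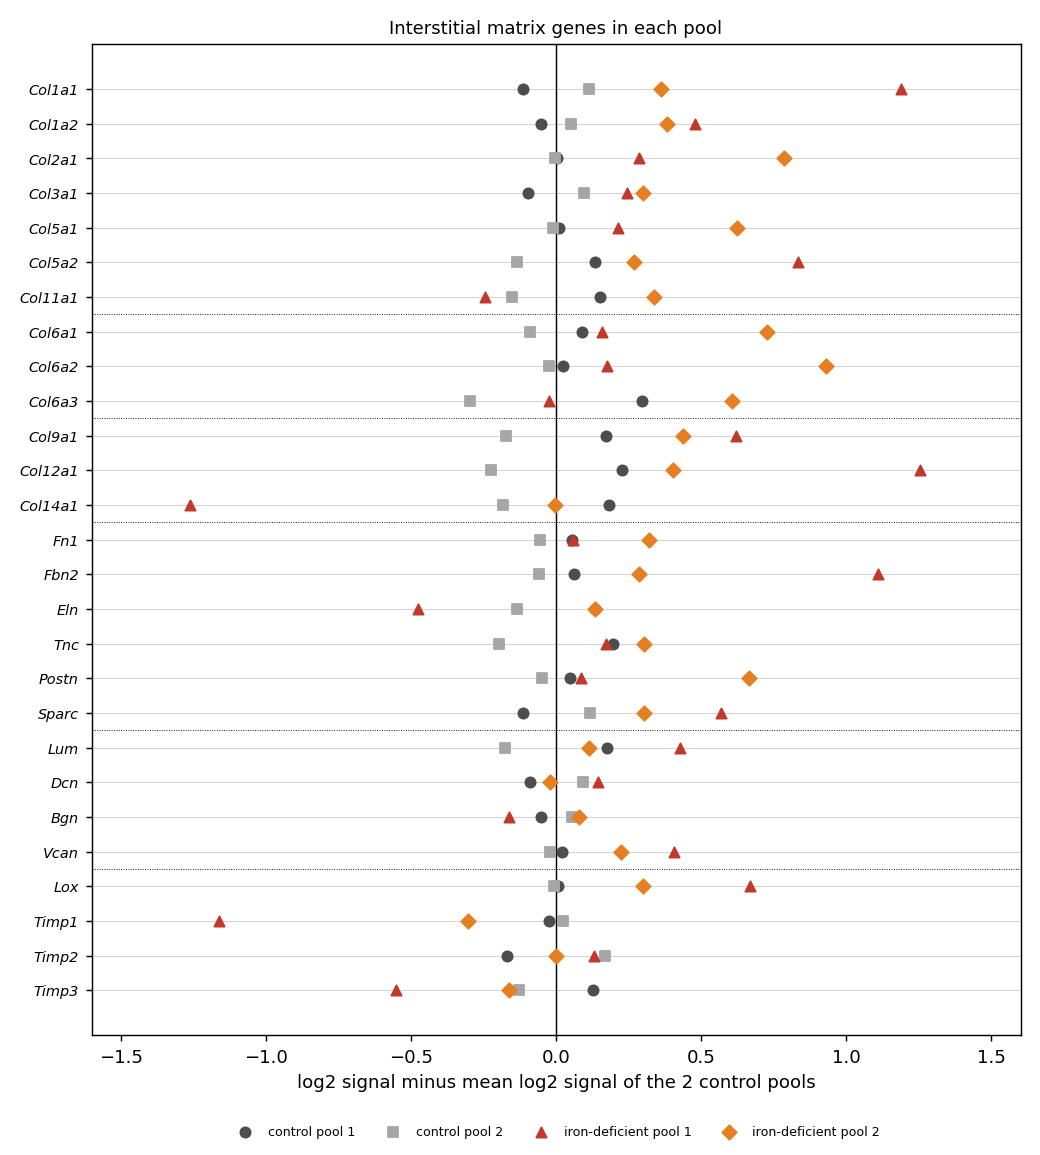
Log2 signal of each interstitial matrix gene in each pool, minus the mean of the 2 control pools (horizontal axis), with one row per gene and dotted lines between classes. Both iron-deficient pools (triangle and diamond) lie right of both control pools for 16 of 27 genes, 6 of them fibrillar collagens, and left of both for Timp1 and Timp3.

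Each iron-deficient pool was also set against both control pools by itself. Pool 1 lay above both for 18 interstitial and 4 basement membrane genes, against 34.9% of all probe sets, and below both for 6 and 11, against 52.6%. Pool 2 lay above both for 21 interstitial and 13 basement membrane genes, against 31.3%, and below both for 2 and 3, against 40.5%. The basement membrane median was 0.26 without pool 1 and -0.18 without pool 2, while the interstitial median was 0.30 and 0.17. Leaving out control pool 2 also turned the basement membrane median, to -0.003, while the interstitial median stayed above 0 without each of the 4 pools. Without pool 1, 5 interstitial genes were higher at an unadjusted limma p under 0.05 (Col2a1, Col5a1, Col6a1, Col6a2 and Postn), against the 3.16% of all probe sets. Without pool 2, 5 others were higher, against 12.8% (Col1a1, Col5a2, Col12a1, Fbn2 and Lox). Without pool 2, Col14a1, Timp1, Col4a4, Col15a1, Col18a1 and Lama1 were lower at the same threshold, against 26.2% of all probe sets. Without pool 1 Col4a3 was lower (-1.23), against 6.55%. With shares of all probe sets that high, the counts without pool 2 are no result about these genes. None of these passed after adjustment, and the smallest adjusted p, for Col15a1 and Timp1 without pool 2, was 0.0771.

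**Figure D4:**
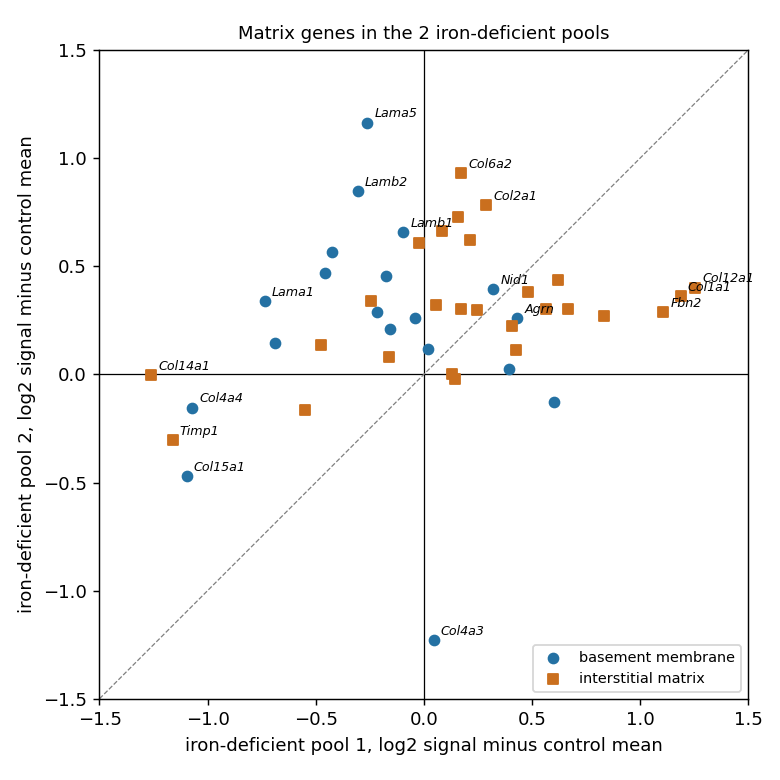
Log2 signal minus the mean of the 2 control pools in iron-deficient pool 1 (horizontal axis) against pool 2 (vertical axis), one point per gene, with equality as a dashed line. Most interstitial genes lie above and to the right of the origin, Col1a1, Col12a1 and Fbn2 farthest along pool 1, and most laminin chains lie above and to the left of it.

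Signals of the cell types that make matrix, and of tissues next to the kidney, are given by whole lists. Fewer cells of a type and less RNA per cell cannot be told apart in these pools. Beside the counts below, 11.8% of all probe sets tested were separated upwards and 25% downwards. Of 11 tested renal stroma markers, 4 were separated upwards and 0 downwards, with a median log2 difference of 0.003 and a summed signal of 14182 and 14262 in control pools, against 14303 and 15809 in iron-deficient pools. Foxd1, the transcription factor that marks cortical stroma, differed by 0.53 ± 0.31 (SE). In that list 6 markers were above 0 and 5 below, among the latter Meis1 (-0.45) and Pdgfrb (-0.31). Of 7 smooth muscle markers, 0 were separated upwards and 4 downwards (median -0.78), and their summed signal was 4293 and 4458 in control pools, against 2329 and 3955 in iron-deficient pools. Endothelial markers had 2 of 10 upwards and 4 downwards (median -0.28). Podocyte markers, of cells that secrete Col4a3 and Col4a4, had 1 of 5 upwards (Wt1) and 3 downwards (median -0.59).

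Cartilage is another source of Col2a1, Col9a1 and Col11a1. Of 10 matched cartilage and bone markers, 4 were bright enough to be tested, and Matn1, Matn3, Ibsp, Col10a1, Epyc and Ucma were not, although none was at 0. Of the 4 tested, 1 was separated upwards, against 11.8% of all probe sets, and 1 downwards, against 25%. Their median log2 difference was -0.22, with 1 above 0 and 3 below. Acan, the main cartilage proteoglycan, read 44.9 and 19 in control pools, against 5.5 and 20.5 in iron-deficient pools. Epyc, a small cartilage proteoglycan, read 7.3 and 6.8 in control pools, against 10.7 and 14.2 in iron-deficient pools. Matn1, a cartilage matrilin, read 5.4 and 7.4 in control pools, against 9 and 8.6 in iron-deficient pools. Acan thus overlapped between diets, and Epyc and Matn1 were separated upwards at signals near the array background. Col10a1, also too dim to be tested, overlapped, at 4.9 and 11.2 in control pools, against 18.5 and 2.8 in iron-deficient pools. The summed signal of that list, 504 and 444 in control pools, against 3660 and 555 in iron-deficient pools, was carried in pool 1 by Sox9 (3529), which kidney epithelium also expresses. Skeletal muscle markers summed to 505 and 375 in control pools, against 416 and 2325.5 in iron-deficient pools, and liver markers to 1574 and 1440 in control pools, against 300.1 and 3037 in iron-deficient pools. Both lists were highest in iron-deficient pool 2, the pool with the highest signals of 6 laminin chains and of collagen VI. Their part in these results was not tested.

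Enzymes that fold and process collagen were read from a list of 25 genes, of which 20 were tested. Of these, 6 were separated upwards, against 11.8% of all probe sets, and 2 downwards, against 25%. Their median log2 difference was 0.14, or 0.24 relative to all probe sets, and -0.22 without iron-deficient pool 2. At an unadjusted limma p under 0.05, 3 were higher, against 1.14% of all probe sets, and 0 lower, against 2.81%. They were the prolyl hydroxylases P4ha1 (1.38 ± 0.37, SE) and P4ha2 (1.44 ± 0.46) and the lysyl hydroxylase Plod2 (1.21 ± 0.34), while P4ha3 differed by 0.53 ± 0.36. The log2 differences of P4ha1, P4ha2 and Plod2 were above the 0.83 of Col12a1, while that of P4ha3 was not. Of 5 further crosslinking genes, 1 was separated upwards (Tgm2, 0.33 ± 0.35) and 0 downwards, with a median of -0.004 as deposited and 0.12 with quantile normalization.

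Further matrix genes outside the set did not share one direction. Among all probe sets, 11.8% were separated upwards and 25% downwards. At an unadjusted limma p under 0.05, 1.14% of all probe sets were higher and 2.81% lower. Of 17 tested basement membrane genes on a second list, 4 were separated upwards and 4 downwards (median 0.04), and 2 were lower at an unadjusted limma p under 0.05. Those were Tinag, the tubulointerstitial nephritis antigen, which read 415.8 and 389.2 in control pools, against 91.6 and 189.7 in iron-deficient pools (-1.61 ± 0.44, SE), and the related Tinagl1 (-1.05 ± 0.41). Fbln2 differed by 1.14 ± 0.47 and Lama3 by -0.98 ± 0.42. Tinag is made by the proximal tubule, whose 9 tested markers were all separated downwards, with a median of -2.84, and the part of that in the Tinag difference was not tested. Of 11 further collagens, 3 were separated upwards and 2 downwards (median 0.16). Col5a3, the third type V chain, read 36 and 35.8 in control pools, against 57.6 and 84.2 in iron-deficient pools (0.96 ± 0.35), higher at an unadjusted p of 0.0372. Col8a1 and Col8a2, the chains of vessel wall collagen VIII, differed by -0.89 ± 0.37 and 0.98 ± 0.49. Of 27 further interstitial genes, 7 were separated upwards and 2 downwards (median 0.12). Tnxb, Has2, Thbs4 and Ltbp1 differed by 1.39 ± 0.48, 0.77 ± 0.42, 0.66 ± 0.35 and 0.59 ± 0.39, with an unadjusted limma p of 0.0311 for Tnxb.

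Matrix-degrading proteases, matrix receptors and the TGF-beta pathway were mixed. Among all probe sets, 11.8% were separated upwards and 25% downwards. Of 15 tested proteases, 4 were separated upwards and 2 downwards, with a median of -0.20, or 0.20 without iron-deficient pool 1. Mmp16 differed by -0.74 ± 0.33 and Mmp14, the membrane-bound activator of Mmp2, by -0.46 ± 0.33 (SE), while Adamts5 differed by 0.47 ± 0.32 and Mmp19 by 0.49 ± 0.33. Of 22 receptors, 7 were separated upwards and 2 downwards (median -0.02 as deposited and 0.04 with quantile normalization). Itgav, an integrin chain that binds fibronectin, differed by 0.65 ± 0.43 and the proteoglycan receptor Sdc4 by 0.59 ± 0.40, while Itgb8 and Bcam, a receptor for Lama5, differed by -0.56 ± 0.34 and -0.89 ± 0.66. Of 14 TGF-beta pathway genes, 5 were separated upwards and 4 downwards (median 0.22). Ccn2, a secreted target of the pathway, read 538 and 441.8 in control pools, against 137.4 and 399.6 in iron-deficient pools (-1.06 ± 0.56), and Tgfb1 differed by -0.58 ± 0.34 and its receptor Tgfbr2 by -0.42 ± 0.34. No gene of these 3 lists reached an unadjusted limma p under 0.05, where 1.14% of all probe sets were higher and 2.81% lower.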

How the data were processed

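RNA from 4 pools of 16 kidneys was biotin-labelled for Affymetrix arrays, per the labels' protocols. The authors deposited a linear intensity for every probe set on every array. Each array has a mean of 250 after trimming 2% at each end. The submitters' processing notes name RMA, which gives logarithmic values, so the deposited intensities are not plain RMA output, and their software is not stated. Intensities were turned to log2 with zeros set to 0.1. Control probe sets (64) and the lowest 40% of the others by mean log2 signal (limit 17.3) were left out. The test was that of limma 3.58.1, run in R 4.3.3 (lmFit and eBayes, two-sided, diet as the only term, 2 residual degrees of freedom, prior 3.49), with Benjamini-Hochberg adjustment over 27022 probe sets. "Separated" means that both pools of one diet lay outside both of the other. Intensities in every pool are given, by class, for up to 4 genes with the smallest p and the brightest, and for all type IV collagens and laminins, and up to 4 genes by smallest p are named from other lists. Other probe sets are named where they differed in sign or bear on a result. Genes and lists were chosen with earlier results of these data known. Of 45037 probe sets, 34945 have 1 symbol, 932 several and 9160 none in the platform annotation, and updating symbols changed 0. The procedure was tested on simulated data. Alternatives were filters, scalings, moderation, array weights, an offset of 16, the probe set rule, a replicate block and leaving out each pool. Centring on hybridisation controls was added after the data were seen.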

Additional observations from a re-analysis of the deposited data

How the results depend on the processing

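Of 46 genes, 8 kept the sign of their log2 difference under every alternative, or 24 with centring on hybridisation controls set aside, and none passed an adjusted p of 0.05 by limma under any of them. The count of probe sets past that threshold was 0 in both directions as reported, 261 higher and 218 lower with the replicate block, 1 and 7 with 1 probe set per gene, 14 and 141 with arrays centred on hybridisation controls, and 0 to 42 higher and 0 to 33 lower with one pool left out, most when control pool 1 was dropped, with 6 and 25 on dropping control pool 2. Equal pool numbers share only a number: the within-diet deviations of same-numbered pools correlated at 0.357 across probe sets. The interstitial median was 0.406 after quantile normalization, 0.511 after median centring, -0.279 with hybridisation controls and 0.174 to 0.424 with one pool left out. The basement membrane median was -0.522 with hybridisation controls and -0.176 to 0.26 with one pool left out. At an unadjusted p of 0.05, basement membrane genes numbered 0 to 3 higher and 0 to 4 lower, and interstitial genes 0 to 5 and 0 to 2, with one pool left out, and 1 of each was lower with hybridisation controls. After quantile normalization the sign turned for Col4a1 (-0.257), Col4a2 (-0.117), Col3a1 (-0.0636), Eln (0.0108), Sparc (-0.0361) and Dcn (-0.0399). After median centring it turned for Eln (0.0267) and Bgn (0.155), and over all probe sets of a gene for Col4a6 (-0.00939), Hspg2 (-0.191) and Timp2 (-0.31). With hybridisation controls it turned for 33 genes: Col4a1 -0.527, Col4a2 -0.485, Col4a5 -0.356, Col4a6 -0.566, Lama2 -0.557, Lama4 -0.522, Lama5 -0.143, Lamb1 -0.312, Lamb2 -0.324, Lamc1 -0.384, Nid1 -0.237, Nid2 -0.455, Hspg2 -0.589, Agrn -0.249, Col1a2 -0.163, Col2a1 -0.059, Col3a1 -0.321, Col5a1 -0.176, Col5a2 -0.0428, Col6a1 -0.152, Col6a2 -0.0418, Col6a3 -0.304, Col9a1 -0.0663, Col11a1 -0.548, Fn1 -0.405, Tnc -0.357, Postn -0.219, Sparc -0.16, Lum -0.325, Dcn -0.533, Vcan -0.279, Lox -0.109 and Timp2 -0.529. With one pool left out it turned within these ranges: Col4a1 -0.0769 to 0.212, Col4a2 -0.0416 to 0.26, Col4a3 -1.23 to 0.0454, Col4a5 -0.126 to 0.603, Col4a6 -0.202 to 0.258, Col18a1 -0.689 to 0.144, Lama1 -0.736 to 0.339, Lama2 -0.216 to 0.29, Lama4 -0.422 to 0.567, Lama5 -0.261 to 1.16, Lamb1 -0.0942 to 0.659, Lamb2 -0.306 to 0.847, Nid2 -0.176 to 0.454, Hspg2 -0.457 to 0.467, Col6a3 -0.0243 to 0.606, Col11a1 -0.246 to 0.339, Eln -0.474 to 0.135, Dcn -0.0302 to 0.153, Bgn -0.161 to 0.0792 and Timp2 -0.105 to 0.235. Where a value differed with the setting, the cause was not tested. With 2 arrays per diet, precision is limited by the number of arrays. A fit without one pool leaves a single array on that diet, so its counts at a p threshold reflect spread in the other diet only.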
